A study of Mus musculus with 12 samples.

Results

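Complement is a cascade of proteins that tags cells, debris and synapses for removal, and 9 of its genes were followed here across injured and uninjured mouse spinal cord. They were taken by name from the deposited tables: the 3 C1q chains (C1qa, C1qb and C1qc), the C1 proteases C1ra and C1s, the central components C3 and C4b, the C1 inhibitor Serping1, and the C3a receptor C3ar1. All 9 were found among the 37991 genes counted, and all 9 passed the filter on low counts that left 16473 genes for testing. The 12 libraries came from whole pieces of spinal cord, 1 adult mouse each (over 8 weeks old, C57bl/6J background), in 3 groups of 4. Every mouse, controls included, carried Glast-CreERT2, R26R-YFP and Rasless. SCI Tam mice received 2 mg of tamoxifen by intraperitoneal injection on each of 5 days. After 7 clearing days they underwent a dorsal hemisection of the cord at high thoracic level, and the lesion was taken 14 days later. SCI Veh mice had the same injections of ethanol and corn oil without tamoxifen, the same operation and the same interval. Uninjured mice, labelled as vehicle injected, gave a segment of intact cord. Tamoxifen switches on a Cre recombinase driven by the Glast (Slc1a3) promoter, which is used to reach type A pericytes and is also active in astrocytes. The submitters described the SCI Veh lesions as densely scarred by pericyte-derived cells and the SCI Tam lesions as less so. There was no uninjured tamoxifen group, so tamoxifen without injury was not measured.

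In the classical pathway, C1q is the recognition molecule: its A, B and C chains assemble into a bundle of collagen-like stalks that end in globular heads. Binding of C1q activates the protease C1r, which activates C1s, and C1s in turn cleaves C4 and C2 to build the enzyme that splits C3. Serping1 encodes the inhibitor that shuts off C1r and C1s. In the central nervous system microglia and macrophages are the main makers of C1q and carry the C3a receptor, while C1r, C1s and the C1 inhibitor are widely made by fibroblasts and other stromal cells.

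The sequences before the start sites of 2 C1q chains and of both C1 proteases are shown, because the results below set the C1q chains against these proteases. They are RefSeq promoter windows on GRCm38.p6, from 250 bases before the start to 50 after it. Windows were found for 6 of the 9 genes. The deposited values were made on mm9, an earlier build, and no value here is tied to these positions. Capitals mark matches to 5 motifs searched on both strands: the ETS core GAGGAA, the interferon element (ISRE), the AP-1 site TGANTCA, the C/EBP site TTNNGNAA and the STAT site TTCNNNGAA.
C1qb, chr4:136886151-136886450, minus strand: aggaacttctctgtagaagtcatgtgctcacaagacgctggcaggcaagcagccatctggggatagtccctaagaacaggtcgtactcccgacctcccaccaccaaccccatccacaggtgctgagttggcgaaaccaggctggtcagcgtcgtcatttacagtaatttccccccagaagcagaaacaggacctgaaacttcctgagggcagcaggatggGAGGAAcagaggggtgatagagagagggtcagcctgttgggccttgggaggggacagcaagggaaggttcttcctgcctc
C1qc, chr4:136892865-136893164, minus strand: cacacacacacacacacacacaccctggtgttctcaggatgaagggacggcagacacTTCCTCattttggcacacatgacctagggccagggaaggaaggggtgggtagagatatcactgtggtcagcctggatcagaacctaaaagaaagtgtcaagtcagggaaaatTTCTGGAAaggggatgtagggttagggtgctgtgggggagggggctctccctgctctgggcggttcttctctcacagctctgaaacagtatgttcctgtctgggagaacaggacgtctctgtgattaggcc
C1s (C1s1 in RefSeq, the first of its 2 windows), chr6:124542310-124542609, minus strand: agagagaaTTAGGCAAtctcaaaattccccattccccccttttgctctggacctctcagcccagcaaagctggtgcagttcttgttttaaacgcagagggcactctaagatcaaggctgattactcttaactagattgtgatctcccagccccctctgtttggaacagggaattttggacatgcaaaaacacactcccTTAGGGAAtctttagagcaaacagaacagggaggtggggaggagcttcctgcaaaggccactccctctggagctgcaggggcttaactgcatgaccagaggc
C1ra, chr6:124512371-124512670, plus strand: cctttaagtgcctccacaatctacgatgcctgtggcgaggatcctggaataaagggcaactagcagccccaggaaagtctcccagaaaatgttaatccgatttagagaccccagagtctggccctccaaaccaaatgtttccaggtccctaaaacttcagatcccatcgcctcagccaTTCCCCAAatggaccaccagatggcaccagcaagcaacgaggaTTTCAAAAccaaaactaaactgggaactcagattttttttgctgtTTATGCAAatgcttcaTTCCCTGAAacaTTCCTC
The ETS core lay 30 bases before the C1qb start and, on the other strand, began 193 bases before the C1qc start, where a C/EBP match also began 81 bases before the start. C1s held 2 C/EBP matches and no ETS core in this window, and C1ra held 3 C/EBP matches, 1 STAT match and an ETS core at the very end of the window. Of 32851 RefSeq windows of this length, 28.3% held the ETS core, 40.7% the C/EBP site, 8.3% the STAT site, 7.8% the AP-1 site and 3.4% the interferon element. A match only describes the letters. In the same annotation C1qb, C1qc and C1qa follow one another on chromosome 4, and C1ra and C1s1 stand side by side on chromosome 6 with C1rb next to them.

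The libraries held 7967970 to 12581324 counts, and they differed in ways that line up in part with the groups. By their sample names, SCI Tam libraries 513, 549 and 564 belong to a series apart from the other 9 libraries, so only SCI Tam library 452 shares a series with the other groups. By sex-linked transcripts all SCI Tam mice were female and 3 of the 4 SCI Veh mice were male, with 429 the female one, while uninjured library 467 was the male of its group. Skeletal muscle transcripts were high in 3 SCI Veh libraries (402, 429 and 457) and 2 uninjured ones (377 and 385). Their part in the results was not tested beyond the fits given beside them. Levels are read counts scaled to library size with edgeR's TMM factors (CPM), and groups were compared with edgeR's quasi-likelihood test over all genes, adjusted by Benjamini-Hochberg at 0.05. In the sentences that follow, values per library run in the order 452, 513, 549 and 564 for SCI Tam, 402, 428, 429 and 457 for SCI Veh, and 376, 377, 385 and 467 for uninjured cord.

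**Figure D1:**
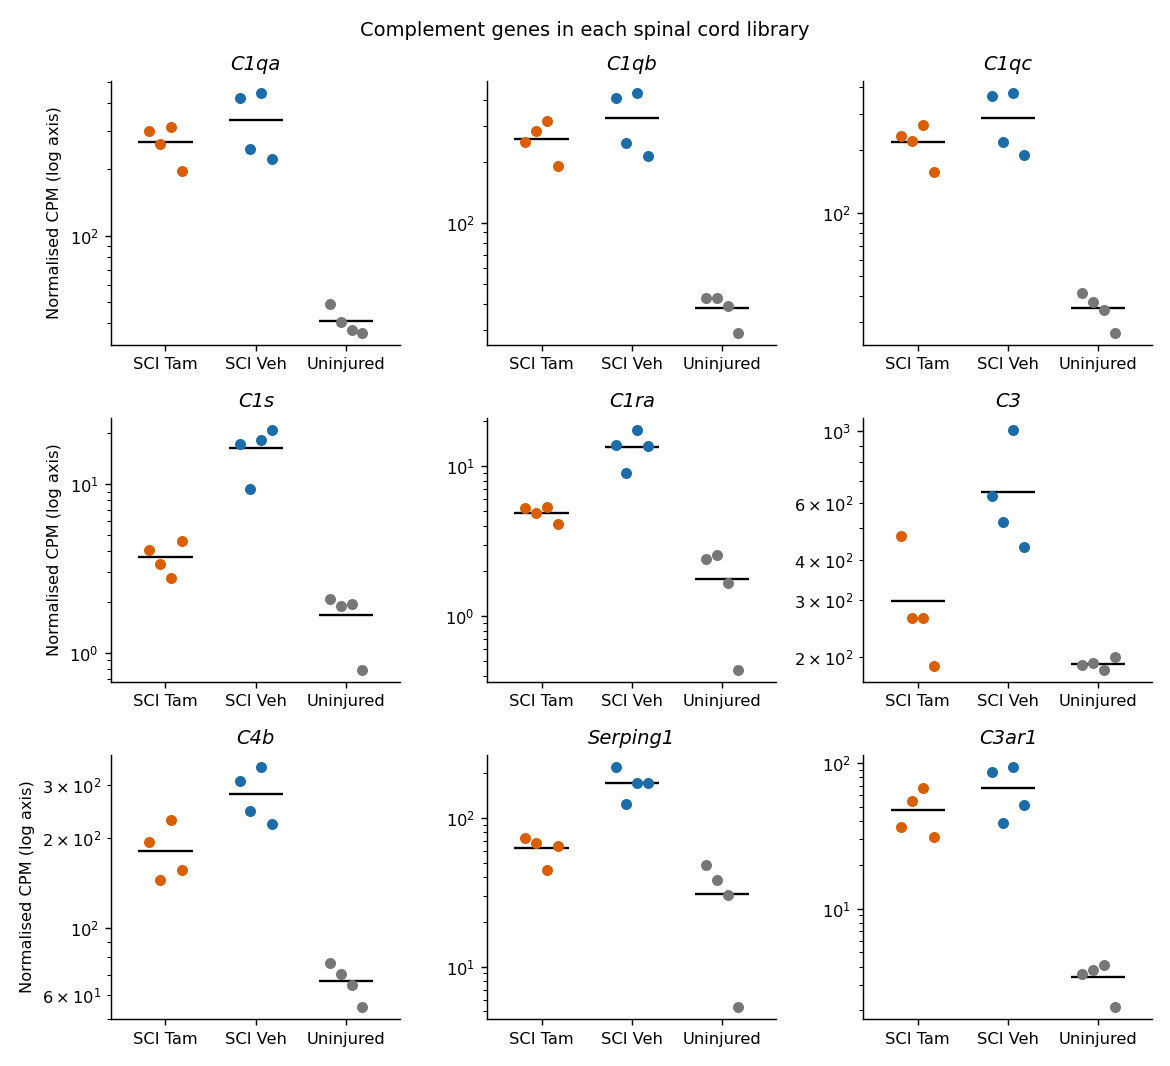
Normalised CPM (log axes, 1 panel per gene, each with its own range) of the 9 complement genes in each library of SCI Tam, SCI Veh and uninjured cord; points are single mice and lines are group means. The SCI Tam and SCI Veh points overlap for the C1q chains and C3ar1, while for C1s all SCI Tam points lie between 2.77 and 4.59 CPM and all SCI Veh points between 9.38 and 20.8 CPM.

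The C1q chains were strongly raised in the injured cord, with or without tamoxifen. C1qa (ENSMUSG00000036887), the A chain, stood at 299, 261, 312 and 196 CPM in SCI Tam lesions, at 421, 247, 445 and 223 CPM in SCI Veh lesions and at 49.1, 40.5, 37.3 and 36.3 CPM in uninjured cord. Every injured library was above every uninjured one, while SCI Tam and SCI Veh overlapped and SCI Veh fell into a high pair (402 and 429) and a low pair (428 and 457). C1qa rose 8.21-fold in SCI Veh over uninjured cord (log2 3.04 ± 0.24 SE, adjusted p = 3.05e-06) and 6.55-fold in SCI Tam over uninjured cord (adjusted p = 1.81e-05). Between SCI Tam and SCI Veh lesions C1qa did not pass the test: the log2 difference was -0.32, with a 95% interval from -0.79 to 0.14 (adjusted p = 0.312).

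The B and C chains had the same pattern over the libraries. C1qb (ENSMUSG00000036905) stood at 251, 282, 316 and 191 CPM in SCI Tam, 412, 248, 435 and 214 CPM in SCI Veh and 42.9, 42.9, 39.1 and 29.0 CPM in uninjured cord. C1qc (ENSMUSG00000036896) stood at 235, 222, 263 and 158 CPM in SCI Tam, 363, 218, 376 and 190 CPM in SCI Veh and 41.5, 37.5, 34.3 and 26.8 CPM in uninjured cord. For both chains the lowest SCI Tam library was 564 and the highest SCI Veh library was 429, and only the injured and uninjured libraries were apart. In SCI Veh over uninjured cord C1qb rose 8.51-fold and C1qc 8.19-fold (adjusted p = 3.16e-06 and 3.37e-06). In SCI Tam over uninjured cord they rose 6.76-fold and 6.27-fold. Between SCI Tam and SCI Veh the log2 differences were -0.33 for C1qb (95% interval -0.82 to 0.15, adjusted p = 0.318) and -0.38 for C1qc (-0.87 to 0.10, adjusted p = 0.243). These intervals do not show that tamoxifen left the chains as they were.

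Per length, on the authors' FPKM scale, the 3 chains kept close to one ratio. Over the 12 libraries the FPKM of C1qa was 0.99 to 1.33 times that of C1qb (median 1.09) and 1.29 to 1.66 times that of C1qc (median 1.43). The A chain had the highest mean FPKM of the chains in each group, with 267 in SCI Tam, 323 in SCI Veh and 39.3 in uninjured cord, but the A and B chains overlapped in every group.

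The C1 proteases rose with injury as well, and they passed the test as lower in SCI Tam than in SCI Veh lesions. C1s (ENSMUSG00000038521), which cleaves C4 and C2, stood at 4.07, 3.35, 2.77 and 4.59 CPM in SCI Tam lesions, at 17.2, 9.38, 18.1 and 20.8 CPM in SCI Veh lesions and at 2.07, 1.89, 1.93 and 0.790 CPM in uninjured cord. The 3 groups did not overlap. These levels rest on few reads, 32 to 50 counts per SCI Tam library, 76 to 265 per SCI Veh library and 9 to 22 per uninjured library. C1s rose 9.87-fold in SCI Veh over uninjured cord (log2 3.30 ± 0.30 SE, adjusted p = 6.22e-06). It was 4.45-fold lower in SCI Tam than in SCI Veh (log2 -2.15 ± 0.27 SE, adjusted p = 0.000978), the largest difference among the 9 genes in that comparison, and 2.22-fold higher in SCI Tam than in uninjured cord (adjusted p = 0.0102).

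C1ra (ENSMUSG00000055172), the protease that activates C1s, followed the same order of groups. It stood at 5.27, 4.85, 5.38 and 4.13 CPM in SCI Tam, 13.8, 9.01, 17.4 and 13.6 CPM in SCI Veh and 2.41, 2.57, 1.67 and 0.439 CPM in uninjured cord. Again no 2 groups overlapped, and uninjured library 467 was the lowest of all. C1ra rose 7.67-fold in SCI Veh over uninjured cord (adjusted p = 2.62e-05), was 2.75-fold lower in SCI Tam than in SCI Veh (log2 -1.46 ± 0.31 SE, adjusted p = 0.00966) and 2.79-fold higher in SCI Tam than in uninjured cord (adjusted p = 0.00451).

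Both proteases have near copies in the mouse genome: 47.6% of the 31-base words of C1s transcripts also occur in other genes, most of them in C1s2, and 59.6% of those of C1ra, most in C1rb. The sources used here do not say how multi-mapped reads were counted, so the split between copies is uncertain. With the counts of each pair added together, a choice made after seeing the data, C1s differed by log2 -2.07 (adjusted p = 0.00206) and C1ra by -1.28 (adjusted p = 0.0158) between SCI Tam and SCI Veh. In the authors' FPKM, C1s stood at 39.4 in uninjured library 467, which had only 9 counts for it, and at 33.2 in SCI Veh library 457. On log2(FPKM + 1), limma gave no call for C1s in SCI Tam against SCI Veh (log2 -1.89, adjusted p = 0.154) or in SCI Veh against uninjured cord (1.37, adjusted p = 0.190).

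Serping1 (ENSMUSG00000023224), the inhibitor of both proteases, was highest in SCI Veh lesions. It stood at 72.7, 67.5, 44.5 and 64.8 CPM in SCI Tam, 219, 124, 171 and 173 CPM in SCI Veh and 48.5, 38.5, 30.1 and 5.35 CPM in uninjured cord. Every SCI Veh library was above every SCI Tam library, whereas the SCI Tam and uninjured ranges overlapped at their edge (44.5 and 48.5 CPM). Serping1 rose 5.66-fold in SCI Veh over uninjured cord (adjusted p = 0.000350) and was 2.76-fold lower in SCI Tam than in SCI Veh (log2 -1.47 ± 0.40 SE, adjusted p = 0.0289). Between SCI Tam and uninjured cord the log2 difference was 1.04 (adjusted p = 0.0562). The SCI Tam against SCI Veh call was lost without any one of libraries 402, 429, 457, 513, 549 or 564 (adjusted p = 0.0542 to 0.0701), with log2 values of -1.33 to -1.51. Without uninjured library 467 the SCI Tam against uninjured difference was smaller but passed (log2 0.68, adjusted p = 0.0263).

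C3 (ENSMUSG00000024164), the component on which the pathways meet, stood at 474, 265, 264 and 188 CPM in SCI Tam lesions, at 630, 522, 1004 and 438 CPM in SCI Veh lesions and at 189, 192, 183 and 200 CPM in uninjured cord. The uninjured libraries lay close together, the SCI Veh libraries spread widely with 429 at the top, and SCI Tam library 452 reached into the SCI Veh range. C3 rose 3.39-fold in SCI Veh over uninjured cord (log2 1.76 ± 0.28 SE, adjusted p = 0.000221) and was 2.18-fold lower in SCI Tam than in SCI Veh (log2 -1.12 ± 0.27 SE, adjusted p = 0.0178). Between SCI Tam and uninjured cord the difference was log2 0.64 (95% interval 0.05 to 1.23, adjusted p = 0.0696). Leaving out 513 or 564 ended the call between SCI Tam and SCI Veh (adjusted p = 0.0579 and 0.0508). The SCI Tam against uninjured difference passed without 564 (log2 0.81, adjusted p = 0.0251) or 429 (0.62, 0.0373).

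C4b (ENSMUSG00000073418), the mouse gene for C4, stood at 193, 145, 230 and 156 CPM in SCI Tam, 309, 245, 343 and 223 CPM in SCI Veh and 76.9, 70.6, 64.6 and 54.8 CPM in uninjured cord. SCI Tam library 549 was just above SCI Veh library 457, and all injured libraries were above the uninjured ones. C4b rose 4.20-fold in SCI Veh and 2.71-fold in SCI Tam over uninjured cord (adjusted p = 3.78e-06 and 6.44e-05). It was 1.55-fold lower in SCI Tam than in SCI Veh (log2 -0.63 ± 0.16 SE, adjusted p = 0.0239), the smallest of the called differences, which was lost without library 402, 429, 513 or 564 (adjusted p = 0.0571 to 0.0740). Of its 31-base words 48.3% also occur in its copy C4a, which stood at 145 ± 35.2 CPM in SCI Tam, 235 ± 41.8 in SCI Veh and 53.1 ± 9.76 in uninjured cord (SD, n = 4 each).

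C3ar1 (ENSMUSG00000040552), the receptor for the C3a fragment, had the largest rise after injury of the 9 genes. It stood at 36.4, 54.7, 67.6 and 31.3 CPM in SCI Tam, 86.4, 38.9, 93.7 and 51.5 CPM in SCI Veh and 3.56, 3.77, 4.13 and 2.11 CPM in uninjured cord. The injured groups overlapped each other and neither came near the uninjured one. C3ar1 rose 19.9-fold in SCI Veh and 14.0-fold in SCI Tam over uninjured cord (adjusted p = 4.19e-06 and 2.43e-05). Between SCI Tam and SCI Veh the log2 difference was -0.51 (95% interval -1.13 to 0.12, adjusted p = 0.234).

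**Figure D2:**
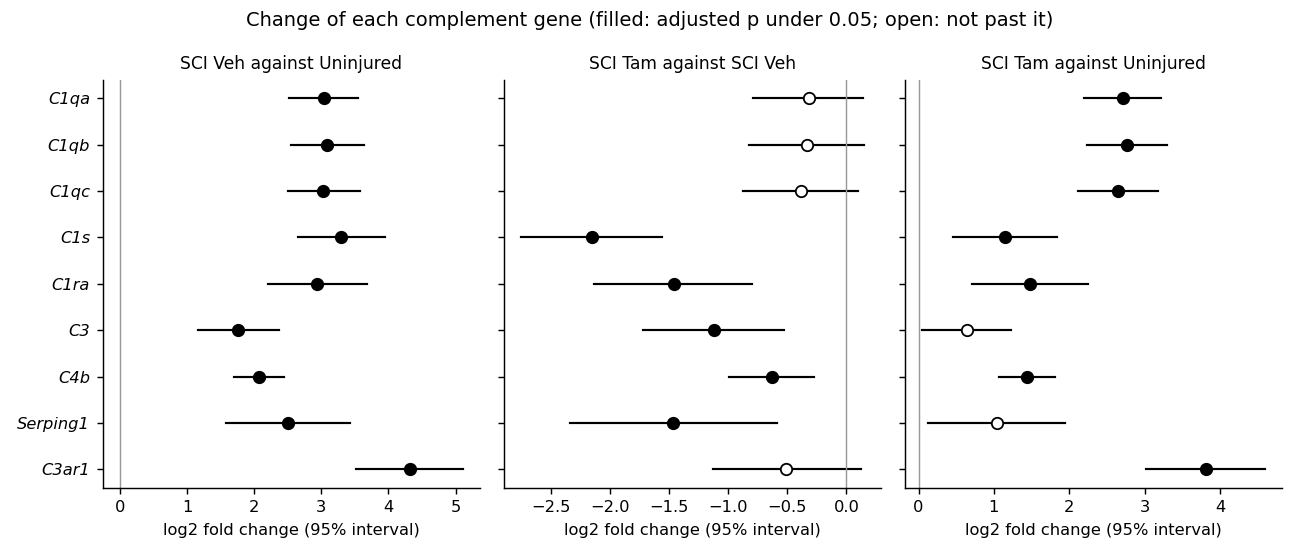
Log2 fold change of each complement gene in 3 comparisons (columns), with 95% intervals from edgeR's quasi-likelihood fit; filled points passed an adjusted p of 0.05 and open points did not. In SCI Tam against SCI Veh the C1q chains and C3ar1 are open, with intervals that cross 0, and C1s lies farthest to the left at -2.15.

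Counted together, 9 of the 9 genes rose in SCI Veh over uninjured cord, where 26.7% of all genes tested rose, and none of the 9 had overlapping groups, where 26.3% of all genes were apart in that direction. Their median log2 change was 3.03, against 0.02 over all genes. In SCI Tam against SCI Veh, 5 of 9 fell (C1s, C1ra, C3, C4b and Serping1), where 8.33% of all genes fell, and 3 of 9 were apart (C1s, C1ra and Serping1), where 8.77% were. The median was -0.63, against 0.00 over all genes. SCI Tam lesions had 7 of 9 genes above uninjured cord, where 26.3% of all genes rose, and 7 of 9 apart, where 21.4% were, with a median of 1.48 against 0.01, and C3 and Serping1 were the other two. SCI Veh and uninjured cord each enter 2 of these comparisons, so the counts are not independent of each other. In whole pieces of tissue, fewer cells of a type and less RNA per cell cannot be told apart.

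With a term for the sample name series, which rests the tamoxifen difference on library 452, 0 of the 9 genes passed in SCI Tam against SCI Veh by the same edgeR test, and 2 had an unadjusted p under 0.05. Few genes passed in that fit at all: of 16473 genes 57 passed, and 2235 had an unadjusted p under 0.05. The log2 values with the series term were -2.01 for C1s (adjusted p = 0.109), -1.36 for C1ra (0.292), -1.24 for Serping1 (0.433), -0.54 for C4b (0.410) and -0.45 for C3 (0.582). Within the shared series, library 452 was below every SCI Veh library for 5 genes, which were C1s, C1ra, C4b, Serping1 and C3ar1. That count rests on 1 library, and the share of all genes with the same order was not taken. With a term for sex the same 5 calls held, with C1s at -2.53 (adjusted p = 0.00431) and C1ra at -2.17 (adjusted p = 0.00718). In that fit all 9 genes were lower in SCI Tam than in SCI Veh at an unadjusted p under 0.05, against 5 without the term. Of all 16473 genes, 4431 had such a p in either direction with the term and 5503 without it. The term rests on SCI Veh library 429 and uninjured library 467, each the only one of its sex in its group. Library 467 was the lowest uninjured library for 8 of the 9 genes, again without the share over all genes. With the sex term the C1q chains were at log2 -0.61 for C1qa (adjusted p = 0.152), -0.72 for C1qb (0.0968) and -0.76 for C1qc (0.0897), and C3ar1 was at -1.01 (0.101). All SCI Tam libraries were below the female SCI Veh library 429 for each of the 9 genes. Library 429 was itself the highest SCI Veh library for 7 of the 9, and the share over all genes was not taken. Without the 5 libraries high in muscle transcripts, SCI Veh was left with library 428 alone, which the fit assumes to vary like the other groups. There, in SCI Tam against SCI Veh, C1s was at -1.34 and C3ar1 and the C1q chains were at 0.01 to 0.29. Library 428 was also the lowest SCI Veh library for 4 of the 9 genes. In SCI Tam over uninjured cord 6 of 9 genes passed with the series term and 5 without the muscle-high libraries.

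Set against each other within a library, the C1q chains stood farther above the proteases in SCI Tam than in SCI Veh. These groups also differed in sample name series, sex and muscle transcripts, which cannot be told apart from tamoxifen here. The difference between the mean log2 level of the 3 chains and that of C1s, on log2(CPM + 0.5), was 5.83, 6.04, 6.50 and 5.15 in SCI Tam, 4.49, 4.59, 4.49 and 3.30 in SCI Veh and 4.13, 4.10, 3.94 and 4.58 in uninjured cord. All SCI Tam libraries were above all others, while SCI Veh and uninjured cord overlapped, averaging 4.22 ± 0.62 and 4.19 ± 0.28 (SD, n = 4 each). The 0.5 CPM added lowers the difference most where a protease is near the floor. In uninjured library 467 C1s had 9 counts (0.790 CPM) and C1ra 5 (0.439 CPM). The gap between SCI Tam and uninjured cord therefore depends on that addition, as do the close averages of SCI Veh and uninjured cord. The chains minus C1ra averaged 5.50 ± 0.16 in SCI Tam, 4.47 ± 0.40 in SCI Veh and 4.21 ± 0.58 in uninjured cord, and the chains minus Serping1 averaged 1.98 ± 0.53, 0.84 ± 0.42 and 0.66 ± 1.18 in the same order. For both of these too, all SCI Tam libraries were above all SCI Veh libraries. These differences describe a choice of genes made with their values known and were given no test.

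The other components stood differently against C1q. The chains minus C3 averaged -0.21 ± 0.45 in SCI Tam, -1.03 ± 0.26 in SCI Veh and -2.33 ± 0.26 in uninjured cord, and the chains minus C4b averaged 0.45 ± 0.25, 0.13 ± 0.23 and -0.81 ± 0.02 in the same order. For C3 and C4b all injured libraries were above all uninjured ones, and SCI Tam and SCI Veh overlapped. The chains minus C3ar1 averaged 2.41 ± 0.32 in SCI Tam, 2.24 ± 0.25 in SCI Veh and 3.33 ± 0.25 in uninjured cord, so the gap between the chains and C3ar1 was smaller in every injured library than in any uninjured one, again with SCI Tam and SCI Veh overlapping.

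**Figure D3:**
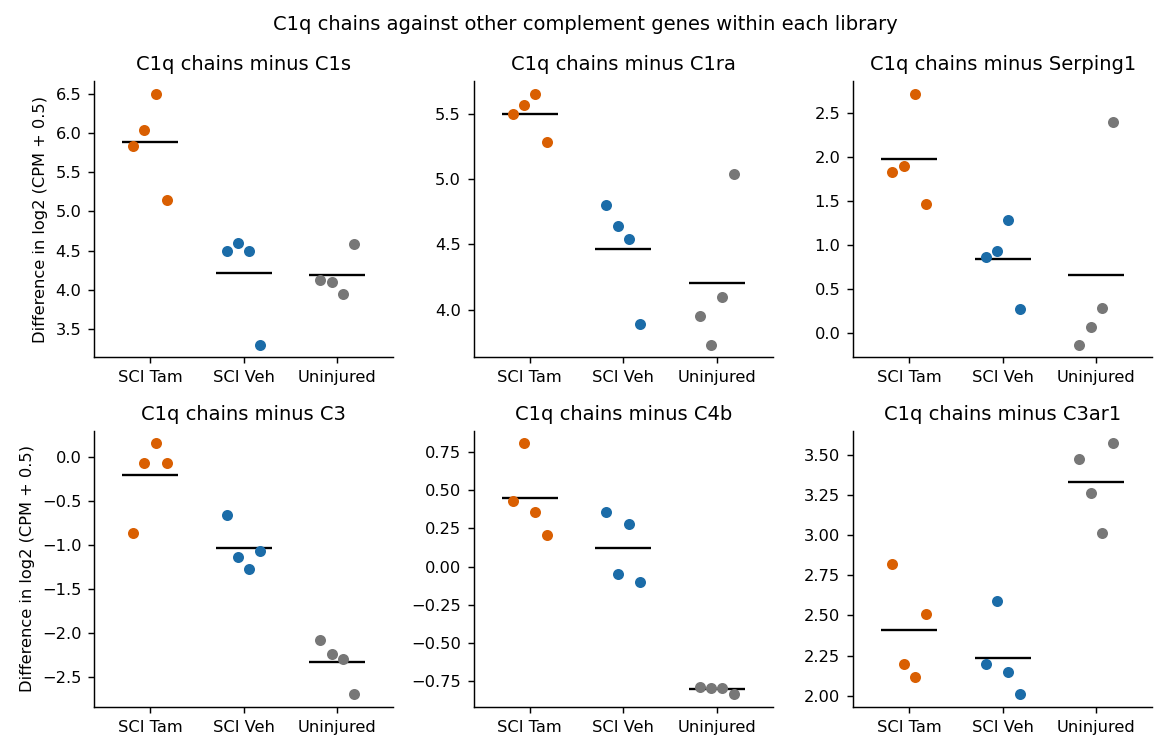
Difference in log2(CPM + 0.5) between the mean of the 3 C1q chains and each of 6 other complement genes within a library, for SCI Tam, SCI Veh and uninjured cord; points are single mice and lines are group means. Against C1s the SCI Tam libraries lie from 5.15 to 6.50 and all others at or below 4.59, and against C3ar1 the uninjured libraries lie highest.

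Per length, the order of the 9 genes also shifted between groups. On the FPKM scale the mean levels in SCI Tam lesions ran from C1qa (267), C1qb (244) and C1qc (181) to C3 (57.4), C4b (47.1), Serping1 (35.2), C3ar1 (9.87), C1s (2.54) and C1ra (2.29). In SCI Veh lesions they were C1qa (323), C1qb (297), C1qc (228), C3 (139), Serping1 (91.6), C4b (83.2), C1s (15.0), C3ar1 (13.6) and C1ra (6.01). By median C3ar1 (13.9) stood above C1s (10.8) there, since the mean of C1s holds the 33.2 of library 457. In uninjured cord C3 (38.3) stood among the C1q chains (39.3, 34.6 and 28.0 for A, B and C), followed by C4b (18.0), Serping1 (17.1), C1s (median 1.88, from 0.985 to 39.4), C1ra (0.889) and C3ar1 (0.675). Neighbours overlapped in their libraries except C1qc and C3, Serping1 and C3ar1, and C3ar1 and C1s in SCI Tam, C4b and C1s in SCI Veh, and C1qc and C4b in uninjured cord.

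Genes of the whole table with the most similar levels over the 12 libraries were ranked by the root mean square difference of their centred log2(CPM + 0.5) values, among 13180 genes with a mean of at least 5 CPM. Nearest to C1qa, apart from C1qc (0.09) and C1qb (0.13), were Ctss (0.16), which encodes the lysosomal protease cathepsin S, Tyrobp (0.18), an adaptor of myeloid receptors, AF251705 (0.18), Plek (0.19) and Cd53 (0.22). Nearest to C1s were Bgn (0.23), the matrix proteoglycan biglycan, Col18a1 (0.28), a basement membrane collagen, Cd248 (0.29), a surface protein of mural and stromal cells, Fbn1 (0.29), the microfibril protein fibrillin, and Serpinh1 (0.29), the collagen chaperone. C1ra lay at 0.40 from C1s, with 15 genes nearer, and C1qa at 0.92. Nearest to C4b were its copy C4a (0.10), Ucp2 (0.16), Man2b1 (0.16), Cx3cr1 (0.18) and Tgif1 (0.18). C3 had no gene nearer than Stxbp2 (0.28), followed by Ptk2b (0.29), Ccdc88b (0.29), Ggt5 (0.32) and Gdpd3 (0.32). The distance is a description and has no test.

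Marker lists of several cell types in the tissue were read beside these genes, and not all went the same way. Macrophage markers (Cd68, Csf1r, Lyz2 and 7 others) summed to 970 to 2446 CPM in SCI Tam, 1416 to 2940 CPM in SCI Veh and 130 to 227 CPM in uninjured cord. Of the 10, 9 rose in SCI Veh over uninjured cord, and 0 passed in SCI Tam against SCI Veh by edgeR's test, with 1 at an unadjusted p under 0.05 and 1 called by DESeq2 and 1 by limma-voom. Microglial markers (Tmem119, P2ry12 and 6 others) summed to 549 to 750 CPM, 629 to 1050 CPM and 263 to 305 CPM in the same order of groups. Of these 7 of 8 rose in SCI Veh over uninjured cord and 1, Tmem119, fell in SCI Tam against SCI Veh (log2 -0.64, adjusted p = 0.0220). That call was lost with the series term, with the sex term and without the muscle-high libraries, where 0 of 8 passed by edgeR's test (2, 4 and 0 at an unadjusted p under 0.05). For both lists the injured groups overlapped, as they did for C1q.

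Fibroblast and scar markers (Col1a1, Dcn, Postn and 6 others) summed to 1006 to 1648 CPM in SCI Tam, 3739 to 10224 CPM in SCI Veh and 220 to 768 CPM in uninjured cord, with no overlap. Of the 9, 9 rose in SCI Veh over uninjured cord and 8 fell in SCI Tam against SCI Veh (median log2 -3.09). The 8 falls became 0 with the series term and 0 without the muscle-high libraries (9 and 4 at an unadjusted p under 0.05), and the 9 rises became 1 without those libraries. Pericyte and mural markers summed to 335 to 404 CPM in SCI Tam, 403 to 513 CPM in SCI Veh and 229 to 275 CPM in uninjured cord, and 2 of 7 fell in SCI Tam against SCI Veh, against 0 in the same pair of fits (2 and 1 at an unadjusted p under 0.05). Astrocyte markers summed to 9264 to 12140 CPM in SCI Tam and 8241 to 10569 CPM in SCI Veh, against 5124 to 5902 CPM in uninjured cord, and 0 of 5 passed between the injured groups. Neutrophil markers summed to 32.1 to 48.7 CPM in SCI Tam, 64.9 to 95.4 CPM in SCI Veh and 7.90 to 44.8 CPM in uninjured cord, and 1 of the 3 tested, Csf3r, fell in SCI Tam against SCI Veh (log2 -0.85, adjusted p = 0.00830), a call also lost in both fits. Csf3r made up most of the neutrophil sum in the injured groups, averaging 33.1 CPM in SCI Tam, 59.5 in SCI Veh and 7.67 in uninjured cord. S100a8 (3.14, 7.04 and 5.04 CPM) and S100a9 (5.13, 9.80 and 8.57 CPM) overlapped between all groups. Liver markers, read because liver makes plasma complement, summed to at most 0.839 CPM in any library. Uninjured library 467, the lowest of its group for 8 of the 9 complement genes, also had the lowest fibroblast sum (220 CPM) and macrophage sum (130 CPM) of its group. None of the macrophage, microglial, fibroblast or mural markers was at 0 in any library, whereas the neutrophil marker Ly6g had 1 count over the SCI Tam libraries, 3 over the SCI Veh libraries and 2 over the uninjured ones. The part of the makeup of the tissue in the complement results was not tested.

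**Figure D4:**
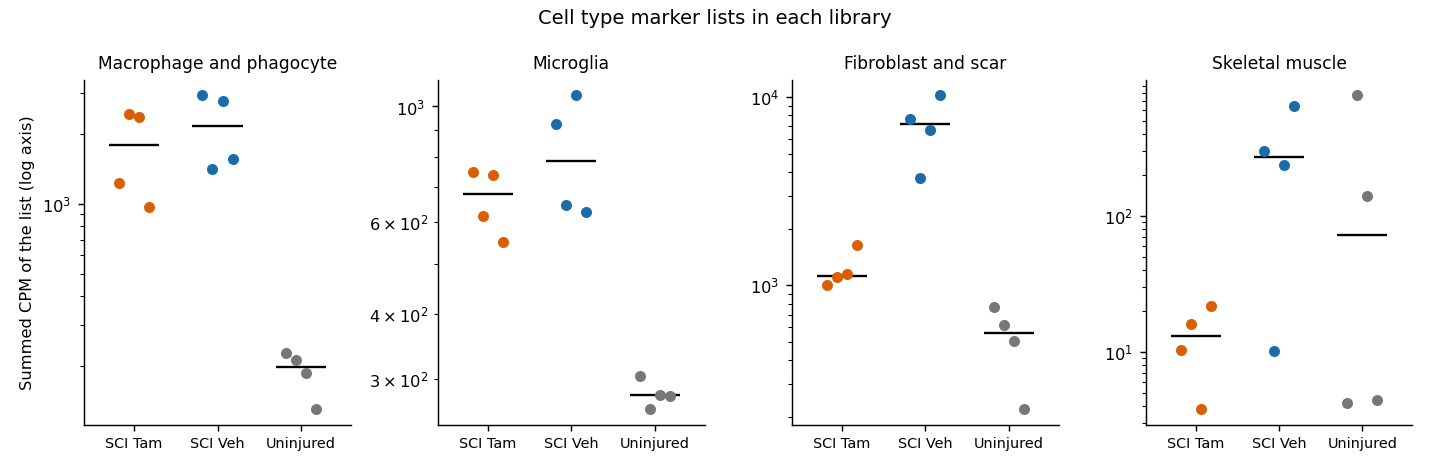
Summed CPM (log axes) of 4 marker lists in each library of SCI Tam, SCI Veh and uninjured cord; points are single mice and lines are group medians. Macrophage and microglial sums overlap between SCI Tam and SCI Veh, fibroblast sums do not (1006 to 1648 CPM against 3739 to 10224 CPM), and muscle sums differ by library within SCI Veh and uninjured cord.

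Beyond these 9, a wider list of 54 names covering 52 complement genes was read, of which 36 passed the filter, the 9 included. In SCI Veh over uninjured cord 26 rose and 2 fell (26.7% and 24.1% of all genes), with a median log2 change of 2.11. Between SCI Tam and SCI Veh 11 fell and none rose (8.33% and 7.79% of all genes), with a median of -0.39. The 25 others did not pass. The 11 hold C4a beside C4b and C1s2 beside C1s, near copies that may share reads, so they are not 11 separate results. SCI Tam lesions had 21 higher and 2 lower than uninjured cord (26.3% and 22.7% of all genes), with a median of 1.16. With the series term none of the 36 passed in SCI Tam against SCI Veh, and 5 had an unadjusted p under 0.05 (57 and 2235 of all 16473 genes). Without the muscle-high libraries 39 were tested, of which 0 passed there (3 at an unadjusted p under 0.05) and 10 rose in SCI Veh over uninjured cord.

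Among the genes that start the classical and lectin pathways, 8 of 10 rose in SCI Veh over uninjured cord and 3 fell in SCI Tam against SCI Veh, which were C1s, C1ra and C1s2. C1s2, the copy of C1s, averaged 0.940 ± 0.259 CPM in SCI Tam and 2.95 ± 1.72 CPM in SCI Veh (SD, n = 4 each; log2 -1.70, adjusted p = 0.0271), with overlap. C1rb, the copy of C1ra, averaged 3.62 ± 0.720 CPM in SCI Tam and 7.11 ± 2.03 CPM in SCI Veh and did not overlap, but missed the threshold (log2 -0.98, adjusted p = 0.0511). Masp1, a protease of the lectin pathway, stayed between 13.4 and 19.9 CPM in all libraries and passed in no comparison.

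Of the 6 activation genes tested, 6 rose in SCI Veh over uninjured cord and 5 fell in SCI Tam against SCI Veh. Besides C3 and C4b these were C2, the partner of C4 in the C3-splitting enzyme, C4a and Cfd. C2 averaged 1.03 ± 0.264 CPM in SCI Tam, 3.13 ± 1.15 CPM in SCI Veh and 0.960 ± 0.371 CPM in uninjured cord (SCI Tam against SCI Veh, log2 -1.60, adjusted p = 0.0108). Cfd, factor D of the alternative pathway, averaged 0.183 ± 0.166 CPM in SCI Tam and 4.58 ± 3.75 CPM in SCI Veh (log2 -4.68, adjusted p = 0.0194). Its groups overlapped because SCI Veh libraries ran from 0.123 to 7.91 CPM. The lowest of them was 428, the only SCI Veh library not high in muscle transcripts. Uninjured libraries ran from 0.176 to 3.21 CPM. The part of tissue carried along with the cord in the Cfd difference was not tested. Cfp, properdin, averaged 9.44 ± 4.13 CPM in SCI Tam and 9.87 ± 2.05 CPM in SCI Veh (adjusted p = 0.895). Cfb, also listed, had too few counts to test: 6 in SCI Tam, 3 in SCI Veh and 6 in uninjured cord. Its FPKM averaged 1.89, 3.83 and 0.605 in the same order, and the cause of this mismatch was not tested. C2 rests on few counts as well, 42, 128 and 41 per group.

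Of the terminal components only C6 and C8g had enough counts to test. C6, a part of the membrane attack complex, averaged 0.258 ± 0.198 CPM in SCI Tam and 2.58 ± 1.87 CPM in SCI Veh without overlap (log2 -3.25, adjusted p = 0.00632), and C8g did not pass (log2 -0.03, adjusted p = 0.945).

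Of 11 regulators tested, 4 rose and 2 fell in SCI Veh over uninjured cord, and in SCI Tam against SCI Veh Serping1 alone fell. Clu, clusterin, averaged 1337 ± 135 CPM in SCI Tam, 1524 ± 212 CPM in SCI Veh and 658 ± 53.4 CPM in uninjured cord, a rise in both injured groups (adjusted p = 3.64e-05 for SCI Tam and 5.64e-06 for SCI Veh). Susd4 and Csmd1, membrane proteins that inhibit complement, fell in SCI Veh against uninjured cord by 0.71 and 0.56 on the log2 scale (adjusted p = 3.56e-05 and 0.0130). The neuronal markers fell with them, 5 of 5, summing to 2026 to 2616 CPM in SCI Veh and 3512 to 3805 CPM in uninjured cord. Without the muscle-high libraries neither these 2 genes nor any of the 5 markers passed in that comparison, with 4 of the markers at an unadjusted p under 0.05.

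All 7 receptors tested rose in SCI Veh and in SCI Tam over uninjured cord, and 1 of them fell in SCI Tam against SCI Veh. That gene was Itgax, the alpha chain of complement receptor 4, at 30.1 ± 15.6 CPM in SCI Tam, 84.7 ± 26.5 CPM in SCI Veh and 0.894 ± 0.464 CPM in uninjured cord (SCI Tam against SCI Veh, log2 -1.51, adjusted p = 0.0108). Itgb2, the beta chain it shares with complement receptor 3, averaged 82.9 ± 26.3 CPM in SCI Tam, 109 ± 29.0 CPM in SCI Veh and 9.40 ± 2.28 CPM in uninjured cord, and did not pass between the injured groups (adjusted p = 0.269). Itgam, the alpha chain of complement receptor 3, was at log2 -0.37 (adjusted p = 0.142) and C5ar1, the C5a receptor, at -0.32 (adjusted p = 0.557) in that comparison.

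**Figure D5:**
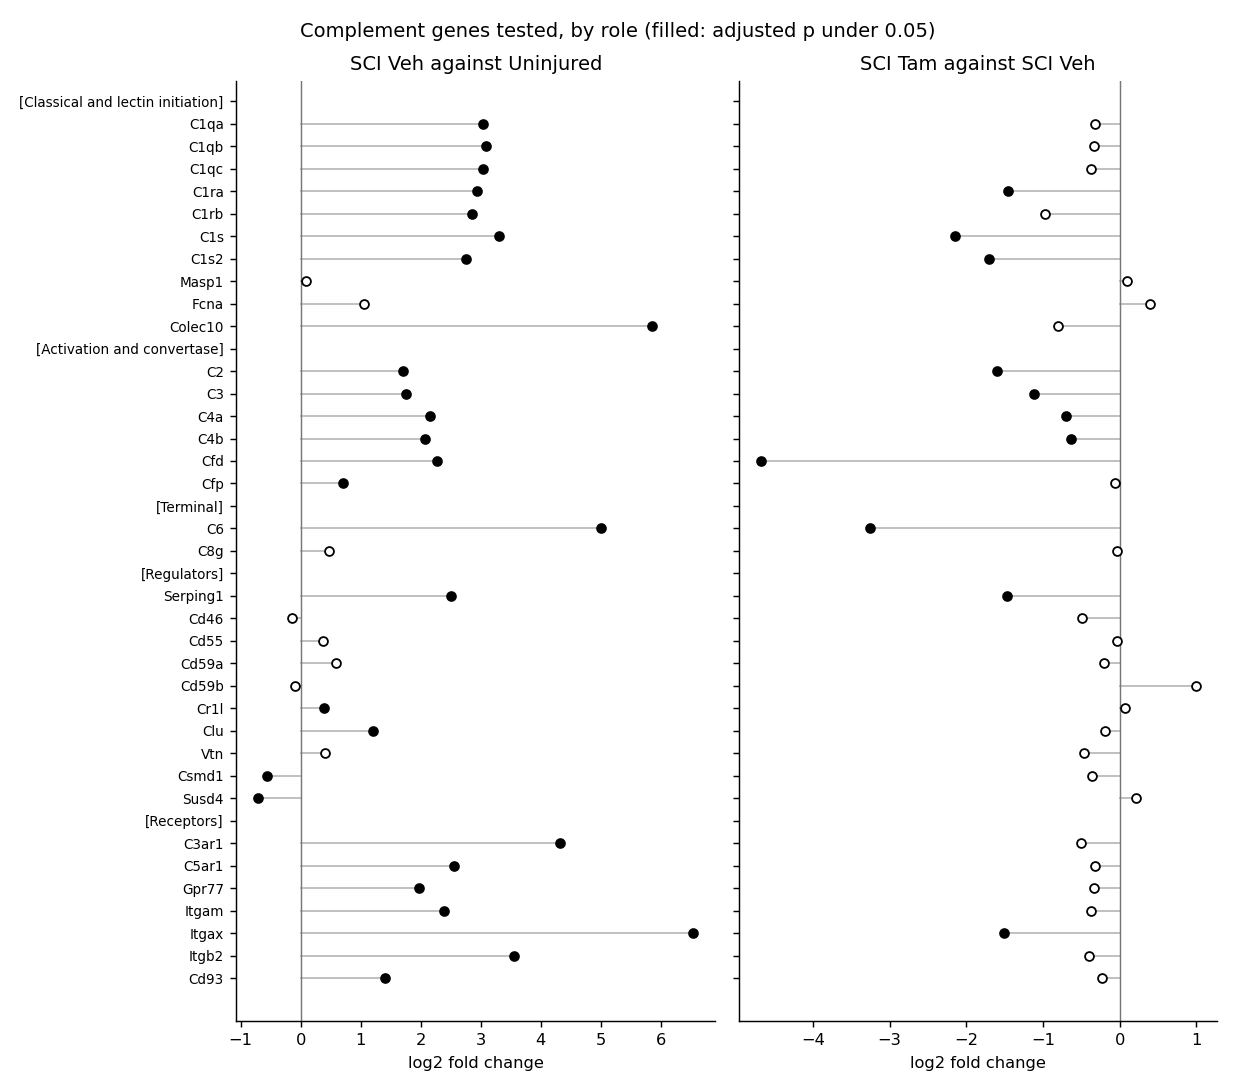
Log2 fold change of 35 of the 36 complement genes tested, ordered by role, in SCI Veh against uninjured cord (left) and SCI Tam against SCI Veh (right); filled points passed an adjusted p of 0.05 in edgeR's quasi-likelihood test and open points did not. Filled points on the right are all below 0 and number 11, and Colec10, at nearly no counts in uninjured cord, has a fitted value on the left that depends on the fit.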

How the data were processed

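RNA was extracted with an RNeasy kit and sequenced on Illumina protocols, per the labels' protocols. Per the submitters' processing notes, TopHat, Picard, Cufflinks and HTSeq were used on mm9; tool roles, strandedness and multi-mapped reads are not described in the sources used here. The files the authors deposited hold raw counts for 37991 Ensembl genes, which were whole numbers, and FPKM values per gene; FPKM served for levels between genes and for alternatives. Names came from the FPKM table. Groups follow the labels. The members and gene lists were chosen with earlier results of these data known.

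The quasi-likelihood test of edgeR 4.0.16 (R 4.3.3) was run on the counts, two-sided, after filterByExpr (minimum count 10, minimum total 15) and TMM scaling, with all 3 groups in one fit (9 residual df) and Benjamini-Hochberg over 16473 genes at 0.05. The code of the fit was run on simulated counts with the same dispersion for every gene. Those counts held no series, sex or muscle differences, so that run does not test the calls given here. SE is the size of the log2 change over the square root of F. Named genes were the 9 members, listed complement genes past the threshold (up to 4 per role with values; C1rb, Clu, Masp1, Cfp, C8g, Itgb2, Itgam and C5ar1 were added after their values were seen), and the 5 genes nearest to C1qa, C1s, C3 and C4b. The values of 1 listed gene are not reported here; group counts include it. Counts carry no molecular identifiers, so counting error covers sampling alone. The p-values set group differences against the spread between libraries within groups, 1 mouse each. That spread also holds differences in sex, sample name series and muscle transcripts.

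Alternatives were DESeq2 size factors, library totals, a stricter filter (1 CPM in 8 libraries) or none, terms for sex and sample name series, libraries high in muscle transcripts left out (mean log2 level above 2), the 8 libraries compared, limma 3.58.1 (voom, and log2 FPKM with 1 or 0.1 added), DESeq2 1.42.0, each library left out, and, added after seeing the data, near copies summed.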

Additional observations from a re-analysis of the deposited data

Results flagged for a closer look

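Dixon's test at its 95% critical value for 4 samples was applied to the highest and lowest library of each group, for the 9 genes and for the C1q chains minus C1s, 30 groups in all. Chance alone marks about 1 group in 20, and 2 were marked. C1s stood at 0.790 CPM in uninjured library 467, far below the other 3 uninjured libraries (1.89 to 2.07 CPM), with a gap of 0.86 of the group's range. In the same library the authors' FPKM for C1s was 39.4, the highest of the 12, so counts and FPKM put it at opposite ends of its group. The C1q chains minus C1s were at 3.30 in SCI Veh library 457, with the other 3 SCI Veh libraries at 4.49 to 4.59 and a gap of 0.92 of the range. Library 457 had the highest C1s (20.8 CPM), fibroblast marker sum (10224 CPM) and muscle marker sum (639 CPM) of the SCI Veh group and the lowest C1qa (223 CPM).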

How the results depend on the processing

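Of 675 values of single genes under 25 other settings, 621 kept their direction and their side of the threshold, 39 lost the call, 9 gained it and 6 changed sign; the cause was not tested. In SCI Veh against uninjured cord the 9 rises held in 22 of 25 settings: C1s was not called with FPKM, and 5 of 9 genes (296 of all genes) were called without the libraries high in muscle transcripts. In SCI Tam against SCI Veh the 5 calls became 3 with the 8 libraries compared and with limma on log2(FPKM + 1), 2 on log2(FPKM + 0.1), and 0 with the series term or without the muscle-high libraries. All-gene counts (2655) were 989 with the sex term, 57 with the series term, 1513 with the 8 libraries, 1518 and 1438 with FPKM, and 0 without the muscle-high libraries, where 1239 had an unadjusted p under 0.05. In SCI Tam against uninjured cord they were 1951 with the series term and 3540 without the muscle-high libraries, against 8063. Signs turned without the muscle-high libraries for C1qa (0.11), C1qb (0.07), C1qc (0.01) and C3ar1 (0.29) in SCI Tam against SCI Veh, and with FPKM for C1s in SCI Tam against uninjured cord (-0.52 with 1 added, -0.44 with 0.1). The chains minus C1s averaged 3.25 by FPKM in uninjured cord, against 4.19 by counts.

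With each library left out, members called were 9 to 9 in SCI Veh against uninjured cord, 2 to 5 in SCI Tam against SCI Veh and 7 to 8 in SCI Tam against uninjured cord. The 2 came without 513 or 564, and 3 without 402 or 429. All-gene counts ran from 7267 to 8987, from 1236 (without 513) to 4631 (without 452), with 1324 without 564 and 1688 without 457, and from 6717 to 8895. The chains minus C1s averaged 5.68 to 6.13 in SCI Tam, 4.09 to 4.52 in SCI Veh and 4.05 to 4.27 in uninjured cord. No paired analysis was possible because the mouse numbers are not shared between groups. C1s and C1ra had the fewest counts of the 9 genes, which limits their precision.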
